A study of Mus musculus with 6 samples.

Results

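Genes of TWEAK and tumour necrosis factor (TNF) signalling were followed in mouse primary osteoblasts from which the kinase gene Mark3 had been removed with Cre. The 10 genes are the TWEAK ligand gene Tnfsf12, its overlapping neighbours Tnfsfm13 and Tnfsf13, the receptor genes Tnfrsf12a, Tnfrsf1a, Tnfrsf1b and Fas, and the intracellular partners Tradd, Traf2 and Ripk1. They were taken by symbol from 51912 genes in the count table, of which 19017 were tested and all 10 were among those tested. Tnfsf12 was chosen because it had passed the threshold in this same comparison, so its fold change and p describe how it was chosen. The other 9 genes were added for their place beside it in the genome or in the pathway.

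The 3 Mark3-KO libraries came from cells given a Cre adenovirus, and the 3 WT libraries from cells given a GFP adenovirus. Exposure lasted 24 h in both. All 6 came from calvarial (skull cap) osteoblasts of Mark3 flox/flox C57BL/6J pups that were 1 d old, so the WT cells carried the floxed alleles too. Genotype and viral cargo changed together and cannot be told apart. Nothing in the labels ties a library to a culture or litter of its own, so the p-values measure spread between libraries that could be technical.

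TWEAK is a cytokine of the TNF superfamily. It is made as a membrane protein, released by furin-type proteases, and binds the small receptor Fn14, the product of Tnfrsf12a. Fn14 recruits TRAF2 with its partner ubiquitin ligases, and its activation stabilises the kinase NIK and turns on the non-canonical NF-kB pathway. TNF acts through TNFR1, which carries a death domain and assembles TRADD, RIPK1 and TRAF2, and through TNFR2, which has no death domain. In bone, TNF is known as a signal that restrains osteoblasts and favours the formation of osteoclasts.

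Levels are given as CPM, counts scaled to a common library size with the TMM method. The counts summed to between 56925883 and 71445243 per library. Mark3 averaged 48.0 ± 4.14 CPM in Mark3-KO cells and 116 ± 2.78 CPM in WT cells (SD, n = 3 each), a log2 fold change of -1.27 (edgeR quasi-likelihood test, Benjamini-Hochberg adjusted p = 0.0153). That call ended without Mark3-KO library 2 (adjusted p = 0.0798), Mark3-KO library 3 (0.0681) or WT library 2 (0.128). The 12 osteoblast markers, all tested, summed to 15539 to 22297 CPM in Mark3-KO libraries and 22569 to 43865 CPM in WT libraries, most of it from Col1a1, Col1a2 and Sparc. By edgeR 0 of them passed. At an unadjusted p under 0.05, 6 were lower (Col1a1, Col1a2, Alpl, Bglap, Bglap2 and Dlx5) and 1 was higher, Spp1. Over all genes 24.8% were lower and 20.8% higher at that p, and the same 7 markers passed by DESeq2. Spp1, at 1489 ± 56.9 CPM in Mark3-KO cells and 1178 ± 90.7 CPM in WT cells, Sparc and Postn had positive log2 fold changes of 0.34, 0.35 and 0.15. Sparc had 6554, 5916 and 1427 CPM in Mark3-KO libraries 1, 2 and 3. Its level in Mark3-KO library 3 lay below the lowest WT library, at 2968 CPM. Summed macrophage and osteoclast markers ran from 432 to 485 CPM in Mark3-KO libraries and from 394 to 451 CPM in WT libraries, with all 13 markers tested and 0 called by edgeR, against 4 at an unadjusted p under 0.05 and 4 by DESeq2, where 45.7% and 37.0% of all genes were. Lymphocyte markers summed to at most 0.488 CPM in Mark3-KO libraries and 0.549 CPM in WT libraries, and Cd3e was at 0 in all 6. Endothelial markers summed to 4.26 to 4.59 CPM in Mark3-KO libraries and 4.17 to 4.55 CPM in WT libraries, and skeletal muscle markers to 2.62 to 6.80 CPM in Mark3-KO libraries and 8.72 to 16.3 CPM in WT libraries, with Myf5 at 0. Libraries also differed by GC content. For the 10% of tested genes richest in GC, the median log2 ratio to the gene's mean over the libraries was -0.18, -0.57 and -0.79 in Mark3-KO libraries 1, 2 and 3, against 0.95, 0.56 and 0.07 in WT libraries 1, 2 and 3. Fold changes are therefore also given after a correction for exonic GC content, and 6 of the 10 genes had more GC than 75% of the genes tested. With that correction Spp1, Sparc and Postn were at 0.02, 0.61 and -0.41 on the log2 scale. Col1a1 moved from -1.74 to -0.43 and Col1a2 from -0.74 to -1.04. Alpl turned from -0.62 to 0.56 and Sp7 from -0.20 to 0.69. Bglap, Bglap2 and Dlx5 stayed below 0, at -0.74, -0.67 and -0.43 with the correction, as did Runx2 and Ibsp, at -0.09 and -0.39. In bulk RNA, fewer cells of a type and less RNA per cell cannot be told apart.

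The 3 ligand genes lie on the minus strand of chromosome 11 (GRCm38, GENCODE M21 annotation), Tnfsf12 and Tnfsf13 head to tail and Tnfsfm13 over both. Tnfsf12 runs over chr11:69686250-69695849, Tnfsf13, which encodes the B-cell survival cytokine APRIL, over chr11:69682846-69685784, and Tnfsfm13 over chr11:69682577-69696098. Tnfsfm13 is the read-through gene whose transcript joins the front of TWEAK to the receptor-binding end of APRIL. Of the 1515 exon bases of Tnfsf12, 731 (48.3%) are also exon bases of Tnfsfm13. Tnfsf13 shares 983 of its 1637 exon bases, and Tnfsfm13 shares 78.1% of its 2235, with 489 of its own. The letters at the branch point are shown because a read on the shared bases alone does not tell the ligands apart. In the first pair of lines the lower-case bases are the 30 coding bases that end an exon shared by Tnfsf12 and Tnfsfm13, and the capitals are the 60 coding bases that follow in each transcript. In Tnfsf12 the exon simply goes on. In Tnfsfm13 the transcript skips 1826 bases and enters an exon of Tnfsf13. In the last line the capitals are the 30 bases before that entry in Tnfsf13 and the lower-case bases are the 60 shared with Tnfsfm13. The sequences are from the GENCODE M21 transcripts, 5′ to 3′ on the minus strand.
Tnfsf12, chr11:69686897-69686986: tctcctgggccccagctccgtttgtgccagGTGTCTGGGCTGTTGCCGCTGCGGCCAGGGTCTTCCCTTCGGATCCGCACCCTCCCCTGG
Tnfsfm13, chr11:69685071-69686986, spliced: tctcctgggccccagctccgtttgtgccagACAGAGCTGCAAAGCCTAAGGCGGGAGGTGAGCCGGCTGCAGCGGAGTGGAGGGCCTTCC
Tnfsf13, chr11:69685071-69685160: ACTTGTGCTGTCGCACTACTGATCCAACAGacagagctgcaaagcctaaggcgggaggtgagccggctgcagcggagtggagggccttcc

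Tnfsf12, the gene for TWEAK, was almost absent from the Mark3-KO libraries and low but clearly counted in the WT libraries. It had 4, 7 and 0 counts in Mark3-KO libraries 1, 2 and 3, against 286, 241 and 180 counts in WT libraries 1, 2 and 3. In CPM these were 0.0543, 0.117 and 0 in the Mark3-KO libraries and 4.90, 4.38 and 2.68 in the WT libraries. Every Mark3-KO library lay far below every WT library. In Mark3-KO library 3 a count of 0 allows up to 0.0488 CPM, taking 3 counts as the limit, which covers counting error only. The means were 0.0572 ± 0.0588 CPM in Mark3-KO cells and 3.99 ± 1.16 CPM in WT cells (SD, n = 3 each), and the Mark3-KO mean was 1.44% of the WT mean. Tnfsf12 fell by 6.09 on the log2 scale (SE 0.69, edgeR quasi-likelihood test, Benjamini-Hochberg adjusted p = 0.0455). The value corrected for GC content was -4.79 (adjusted p = 0.0355). Leaving out Mark3-KO library 2 or 3 or WT library 1 or 2 ended this call, with adjusted p from 0.0808 to 0.154, while leaving out any of the 6 left the log2 fold change between -7.01 and -5.55.

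Tnfsfm13, which shares the TWEAK exons, did not show that difference. It had 1.18, 0.839 and 1.30 CPM in Mark3-KO libraries and 1.59, 0.853 and 1.07 CPM in WT libraries, with overlapping groups. On the log2 scale the fold change was -0.084 (SE 0.30, edgeR adjusted p = 0.844) and turned to 0.95 with the GC correction (adjusted p = 0.125). Tnfsf13, the APRIL gene, had 1.02, 0.772 and 0.407 CPM in Mark3-KO libraries and 0.103, 0.635 and 0.164 CPM in WT libraries. WT library 2 lay inside the range of the Mark3-KO libraries. For Tnfsf13 the fold change was 1.31 on the log2 scale (SE 0.68, edgeR adjusted p = 0.178). Leaving out 1 library at a time moved it between 0.90, without WT library 1, and 2.42, without WT library 2. With the GC correction the Tnfsf13 fold change was 1.70 (edgeR adjusted p = 0.153). On the corrected log2 CPM scale all Mark3-KO values of Tnfsfm13 and of Tnfsf13 lay above all their WT values. For Tnfsf13 the gap was narrow, with -0.812 in Mark3-KO library 3 and -0.815 in WT library 2. The share of all genes without overlap on that scale was not counted.

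The balance among the 3 ligand genes thus differed in the libraries as counted. Tnfsf12 took 2.41% (0.941 to 6.03%), 6.80% (3.33 to 13.4%) and 0% (0 to 3.53%) of the 3 genes' counts in Mark3-KO libraries 1, 2 and 3 (95% Wilson intervals). It took 74.3% (69.7 to 78.4%), 74.6% (69.6 to 79.1%) and 68.4% (62.6 to 73.8%) in WT libraries 1, 2 and 3. No interval of a Mark3-KO library met one of a WT library, but Tnfsf12 was chosen for its change in these libraries, so that gap is a description. These intervals cover counting error only, not spread between libraries or the way shared reads were split. How reads of shared exon bases were given to one gene or another was not given in the sources used here, so the locus was also fitted as a sum. Tnfsf12 and Tnfsfm13 together averaged 1.16 ± 0.183 CPM in Mark3-KO cells and 5.16 ± 1.37 CPM in WT cells (SD, n = 3 each). The sum fell by 2.15 on the log2 scale (SE 0.26, edgeR adjusted p = 0.0477). In WT libraries Tnfsf12 held 71.4 to 83.7% of the summed counts. The choice of Tnfsf12 for its change thus carries over to the sum, whose p is a description too. Corrected for GC, the sum's log2 fold change of -0.91 no longer passed (adjusted p = 0.0940), nor did the sum pass without Mark3-KO library 2 or 3 or WT library 1 or 2 (adjusted p from 0.118 to 0.154).
The 3 ligand genes together averaged 1.90 ± 0.308 CPM in Mark3-KO cells and 5.46 ± 1.39 CPM in WT cells. With the antisense gene Tnfsf13os, which overlaps them on the opposite strand, the sum of 4 genes averaged 2.19 ± 0.401 CPM in Mark3-KO cells and 5.88 ± 1.52 CPM in WT cells. For that sum the fold change was -1.42 on the log2 scale (SE 0.25, edgeR adjusted p = 0.0506). Its GC correction used the mean GC content of Tnfsf12 and Tnfsfm13 alone, not of all 4 genes, and gave -0.23. That 4-gene sum was chosen after the values were seen, and it also holds the counts of Tnfsf12. Tnfsf13os alone had 0.290 ± 0.170 CPM in Mark3-KO cells and 0.416 ± 0.225 CPM in WT cells, and it shares 253 of its 1109 exon bases with Tnfsfm13 and 221 with Tnfsf13. On those bases its reads cannot be told apart from theirs, since the kit does not mark strand.

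**Figure D1:**
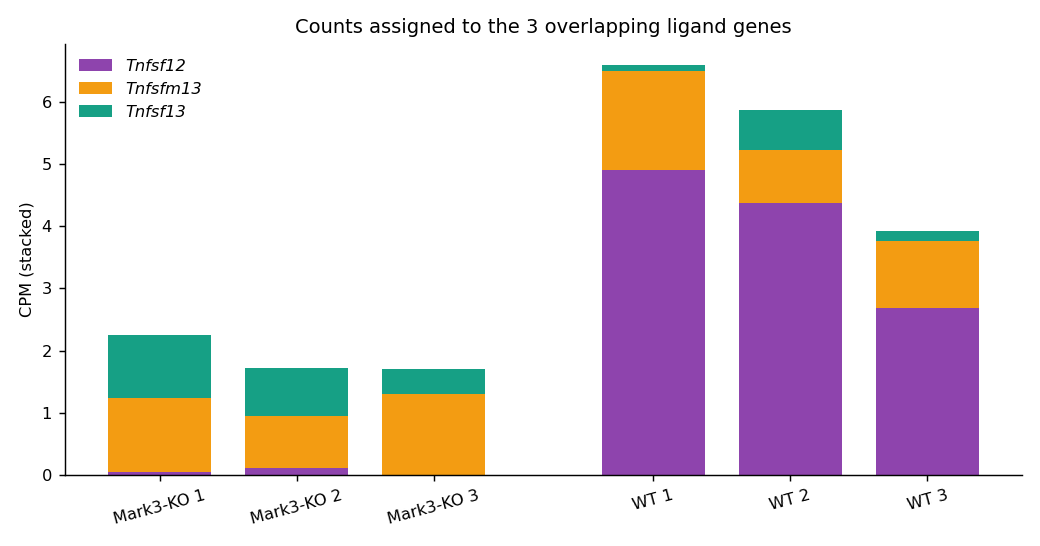
CPM given to Tnfsf12, Tnfsfm13 and Tnfsf13, stacked, in each Mark3-KO library and then each WT library. Tnfsf12 fills 68.4 to 74.6% of the WT bars and 0 to 6.80% of the Mark3-KO bars, while Tnfsfm13 stays between 0.839 and 1.59 CPM in all 6.

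The genes around the ligand locus did not show a change of that size. Of 15 other genes with exons within 50 kb of Tnfsf12, 10 were tested and 0 passed by edgeR, while 2 had an unadjusted p under 0.05, as did 45.7% of all genes, and 2 passed by DESeq2, as did 37.0%. Senp3, a SUMO protease gene 4166 bases away, had 65.8 ± 6.52 CPM in Mark3-KO cells and 80.9 ± 12.6 CPM in WT cells. Eif4a1, the gene of a translation initiation helicase, had 704 ± 35.4 CPM in Mark3-KO cells and 672 ± 44.6 CPM in WT cells. Fxr2, an RNA-binding protein gene, had 52.8 ± 5.85 CPM in Mark3-KO cells and 79.0 ± 11.4 CPM in WT cells. Mpdu1, Cd68 and Polr2a had log2 fold changes of -0.55, -0.37 and -0.11. With the GC correction they turned to 0.24, 0.14 and 0.34, as Fxr2 did from -0.58 to 0.28 and Senp3 from -0.30 to 0.11.

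Fn14, the receptor for TWEAK, was the member whose Mark3-KO libraries differed most from each other. Its gene Tnfrsf12a lies at chr17:23675445-23677468 on the minus strand (GRCm38) and shares no exon base with another gene. Its start region is shown because its level split inside the Mark3-KO group. The bases run 5′ to 3′ over the 250 before and the 20 after the RefSeq start (GRCm38.p6, minus strand), and capitals mark GGGCGG on either strand, the GC box bound by the SP factors.
Tnfrsf12a promoter, chr17:23677430-23677699: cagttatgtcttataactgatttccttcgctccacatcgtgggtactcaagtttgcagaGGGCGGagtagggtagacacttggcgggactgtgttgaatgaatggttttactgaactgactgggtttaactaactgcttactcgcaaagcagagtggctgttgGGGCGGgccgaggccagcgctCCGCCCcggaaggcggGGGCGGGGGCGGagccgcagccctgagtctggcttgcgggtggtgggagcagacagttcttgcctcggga
The window of 300 bases around the start holds 5 GC boxes, and 35.7% of 32851 RefSeq promoters of the same length hold at least 1. Neighbouring boxes were counted also where they touch. TGANTCA (the AP-1 motif, found in 7.81% of promoters) and CCAAT (37.4%) were not found in it on either strand. The share of promoters with 5 GC boxes was not counted. Among other members, the windows held 0 boxes for Tnfrsf1a, 1 each for Traf2, Tnfsfm13 and Tnfsf13, and 2 each for Tnfrsf1b and Fas. Those of Ripk1 held 3 and 4 at different starts. A link between the boxes and the split was not tested.

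Tnfrsf12a had 47.5, 2.84 and 1.38 CPM in Mark3-KO libraries 1, 2 and 3, from 3500, 169 and 85 counts. In WT libraries 1, 2 and 3 it had 88.2, 66.7 and 53.9 CPM, from 5144, 3671 and 3619 counts. All Mark3-KO values lay below all WT values, but library 1 lay close to the WT range and libraries 2 and 3 far below it. The means were 17.2 ± 26.2 CPM in Mark3-KO cells and 69.6 ± 17.3 CPM in WT cells (SD, n = 3 each). On the log2 scale the fold change was -2.01 (SE 1.21), which did not pass (edgeR adjusted p = 0.235). Without Mark3-KO library 1 it was -5.05 and passed (edgeR adjusted p = 0.0164), in a fit in which 32.1% of all genes tested were called, and over the 6 fits that leave out 1 library it ran from -5.05 to -1.48. With the GC correction, log2 CPM of Tnfrsf12a was 5.76, 2.21 and 1.47 in Mark3-KO libraries 1, 2 and 3 and 5.40, 5.39 and 5.64 in WT libraries 1, 2 and 3. On that scale Mark3-KO library 1 stood above every WT library and the other Mark3-KO libraries stayed low.

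A spread of this size inside a group was rare and was found in both groups. Among 9357 tested genes with a mean of at least 10 CPM, the highest over the lowest library, after adding 0.5 CPM, was 1.25-fold in the median gene within Mark3-KO and 1.25-fold within WT. For Tnfrsf12a it was 25.5-fold within Mark3-KO and 1.63-fold within WT. The ratio reached 10-fold within Mark3-KO and stayed under 2-fold within WT in 18 genes (0.192%), among them Alx4, Six2, Bend3, Vkorc1 and Malat1, and the reverse was seen in 12 genes (0.128%). The other receptors and adaptors above 10 CPM had spreads of 1.09- to 1.89-fold within Mark3-KO and 1.23- to 1.497-fold within WT. Mark3-KO library 1 was at least 10 times the higher of Mark3-KO libraries 2 and 3 in 5 of the 9357 genes. It was at least 5 times in 27 genes, and Tnfrsf12a, at 16.7 times, ranked 5. These limits were chosen after the values of Tnfrsf12a were seen, and why library 1 differed was not tested.

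**Figure D2:**
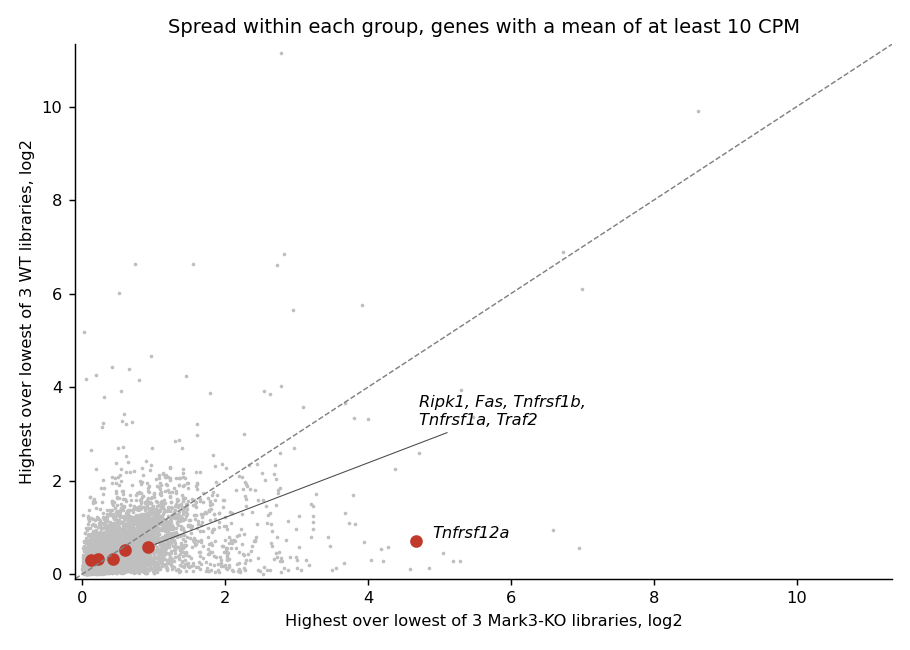
Highest over lowest library (log2, after adding 0.5 CPM) within the 3 Mark3-KO libraries on the horizontal axis and within the 3 WT libraries on the vertical axis, for 9357 genes in grey, with the members above 10 CPM in red. Tnfrsf12a lies at 4.67 and 0.70, to the right of most genes, and the other 5 lie in the main cloud.

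The 3 tested genes beside Tnfrsf12a had their highest Mark3-KO level in library 1, by smaller steps than Tnfrsf12a. The share of all genes highest there was not counted. Hcfc1r1, a small gene 218 bases away, had 25.9, 18.4 and 14.2 CPM in Mark3-KO libraries 1, 2 and 3. Its means were 19.5 ± 5.97 CPM in Mark3-KO cells and 45.0 ± 14.6 CPM in WT cells. The log2 fold change of -1.21 (edgeR adjusted p = 0.0506) was 0.16 with the GC correction. Thoc6, a subunit gene of the mRNA export complex THO, had 8.66, 6.21 and 5.68 CPM in Mark3-KO libraries 1, 2 and 3. Its means were 6.85 ± 1.59 CPM in Mark3-KO cells and 11.9 ± 3.05 CPM in WT cells. The log2 fold change of -0.80 turned to 0.24 with the correction. Pkmyt1, the gene of a kinase that holds back entry into mitosis, had 2.50, 1.14 and 0.716 CPM in Mark3-KO libraries 1, 2 and 3, against 11.9, 7.23 and 3.59 CPM in WT libraries 1, 2 and 3. Its groups did not overlap, and its log2 fold change of -2.37 (edgeR adjusted p = 0.0506) was -1.27 with the GC correction. Of the 8 genes within 50 kb, 3 were tested and 0 passed by edgeR, while all 3 had an unadjusted p under 0.05, as did 45.7% of all genes, and passed by DESeq2, as did 37.0%.

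TNFR1, the main death-domain receptor for TNF, is encoded by Tnfrsf1a (chr6:125349362-125362484). It had 84.5, 65.4 and 55.6 CPM in Mark3-KO libraries, against 151, 128 and 105 CPM in WT libraries. All Mark3-KO values lay below all WT values. The means were 68.5 ± 14.7 CPM in Mark3-KO cells and 128 ± 23.0 CPM in WT cells, and the log2 fold change of -0.90 (SE 0.20) just missed the threshold (edgeR adjusted p = 0.0506). Corrected for GC it was 0.077. TNFR2, the death-domain-free receptor encoded by Tnfrsf1b (chr4:145213463-145246870), had 16.1, 14.3 and 11.9 CPM in Mark3-KO libraries and 21.4, 16.9 and 17.3 CPM in WT libraries. The groups did not overlap, by less than 1 CPM. The fold change of -0.39 on the log2 scale (SE 0.17) did not pass (edgeR adjusted p = 0.113) and was 0.25 when corrected for GC.

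Fas, the death receptor that recruits FADD and caspase-8, pointed the other way. At chr19:34290666-34327772, it had 17.4, 18.9 and 20.3 CPM in Mark3-KO libraries and 12.9, 13.5 and 16.3 CPM in WT libraries. Each Mark3-KO value was above each WT value. The log2 fold change of 0.41 (SE 0.14) did not pass (edgeR adjusted p = 0.0712) and was 0.060 when corrected for GC.

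Among the intracellular partners, Tradd, the adaptor that docks on the TNFR1 death domain, had 4.69, 3.44 and 2.94 CPM in Mark3-KO libraries and 11.5, 8.68 and 4.49 CPM in WT libraries. WT library 3 lay inside the Mark3-KO range. Its change of -1.15 on the log2 scale (SE 0.36) did not pass (edgeR adjusted p = 0.0598) and was 0.068 when corrected for GC. Traf2, the adaptor shared by Fn14 and both TNF receptors, had 15.5, 11.4 and 7.97 CPM in Mark3-KO libraries and 26.7, 23.9 and 17.7 CPM in WT libraries. Those groups did not overlap. Traf2 had a log2 fold change of -0.96 (SE 0.28, edgeR adjusted p = 0.0525) as counted and of -0.63 when corrected for GC. Ripk1, the kinase that links TNFR1 to survival, apoptosis or necroptosis, had 78.0, 79.4 and 84.9 CPM in Mark3-KO libraries and 59.0, 59.6 and 72.9 CPM in WT libraries. All Mark3-KO values were above all WT values, with a log2 fold change of 0.34 (SE 0.11, edgeR adjusted p = 0.0678) that was 0.12 with the GC correction. Of the 8344 exon bases of Ripk1, 752 also belong to Serpinb6a on the opposite strand or to the pseudogene Gm17084. Serpinb6a, which shares 241 bases with Ripk1, had 359 ± 7.51 CPM in Mark3-KO cells and 281 ± 29.6 CPM in WT cells. Its log2 fold change was 0.36, and its part in the counts of Ripk1 was not tested.

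**Figure D3:**
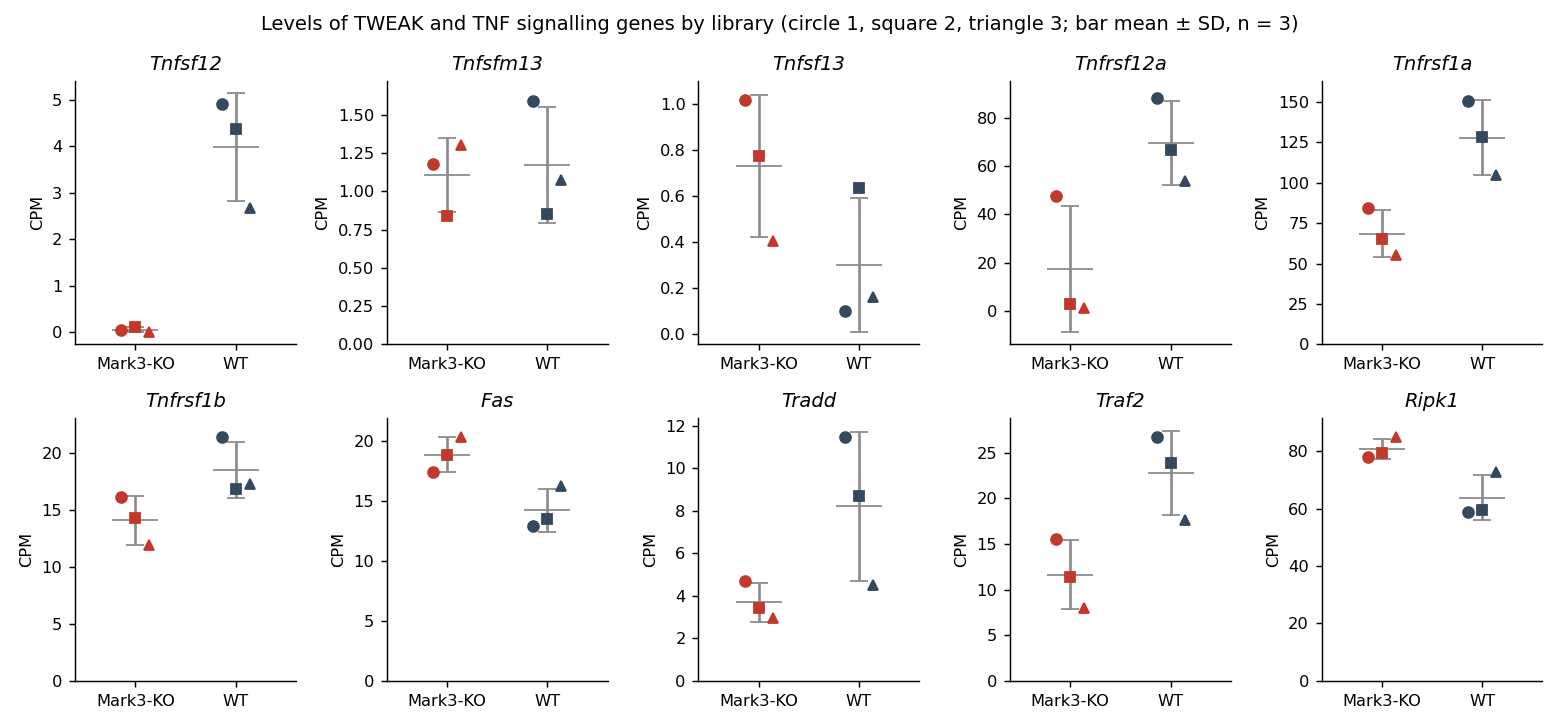
Level in CPM of each of the 10 genes in every library, Mark3-KO on the left and WT on the right of each panel, with horizontal bars for the mean and error bars for the SD (n = 3 each). Tnfsf12 is near 0 in all Mark3-KO libraries, Tnfrsf12a in libraries 2 and 3 alone, and Fas and Ripk1 are higher in Mark3-KO libraries.

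Taken as a list, 1 of the 10 genes fell (Tnfsf12) and 0 rose by edgeR's adjusted p, where 0.216% of all 19017 tested genes passed, 0.168% lower and 0.0473% higher. Nothing is read from that count, since Tnfsf12 was chosen by it. At an unadjusted p under 0.05 there were 4 lower and 2 higher members, where 45.7% of all genes were below it, 24.8% lower and 20.8% higher. The groups did not overlap for 5 lower and 2 higher members, where 53.3% of all genes did not overlap, 27.5% lower and 25.8% higher, so non-overlap was common over the whole table. Tnfsf12, at an adjusted p of 0.0455, lay just inside the threshold and Tnfrsf1a, at 0.0506, just outside. Adjusted p-values from edgeR were packed there: 4707 genes had one under 0.055. Under 0.1 there were 6 members and 43.7% of all genes. DESeq2's Wald test, with an adjusted p under 0.05 for 37.0% of all genes, called 5 members.

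The members differed in how their fold changes moved with GC content. The median log2 fold change of the 10 was -0.65 as counted, against 0.02 for all tested genes, and 0.07 with the GC correction, against 0.06 for all tested genes. The corrected values were above 0 for 7 members and below 0 for Tnfsf12, Tnfrsf12a and Traf2. The GC-rich genes Tnfrsf1a, Tradd and Tnfrsf1b (56.0, 57.3 and 53.7% GC) turned from negative to slightly positive values. Tnfsfm13 (56.1% GC) turned by more, from -0.084 to 0.95. The GC-poor genes Fas and Ripk1 (43.6 and 45.7% GC) moved towards 0. Tnfsf12, at 58.8% GC, kept a large negative value and was the only member past the threshold after correction, where 0.326% of all genes passed. Nothing is read from that call either, since Tnfsf12 was chosen by its change in the same libraries.

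**Figure D4:**
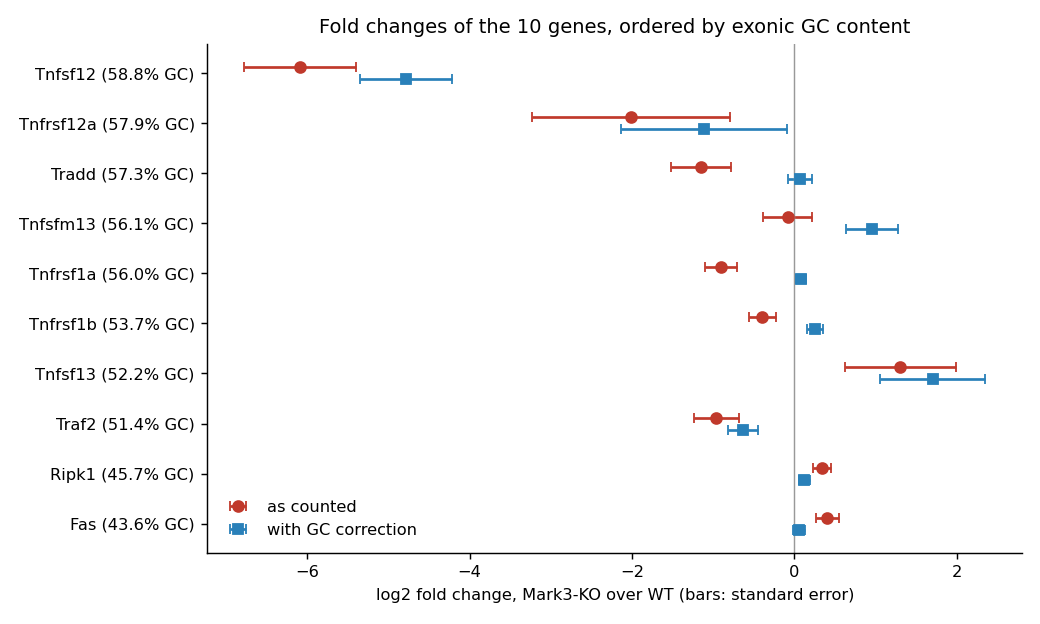
Log2 fold change of Mark3-KO over WT for each gene, from the most GC-rich at the top to the least at the bottom, as counted (red circles) and with the GC correction (blue squares), with bars for the standard error. Tnfsf12 stays below -4 in both, and Tnfrsf1a, Tradd, Fas and Ripk1 lie within 0.13 of 0 after correction.

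Several members also followed the main axis of the data. Along the first principal component, which held 65.5% of the variance, the libraries lay in the order Mark3-KO 3, Mark3-KO 2, Mark3-KO 1, WT 3, WT 2 and WT 1. Levels of Tnfrsf12a, Tnfrsf1a and Traf2 were lowest at the Mark3-KO end and higher at every step towards the WT end, as for 15.9% of all tested genes. Levels of Fas and Ripk1 were highest at the Mark3-KO end and lower at every step, as for 11.9%. Mark3-KO library 1 and WT library 3 were neighbours on this axis. Leaving out WT library 3 brought 6 members past the threshold by edgeR and leaving out Mark3-KO library 1 brought 4, while 6460 and 6265 genes in all passed in those fits.

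Per length of exon, every receptor had a higher mean level than every one of the 3 ligand genes in each group, by margins that differed widely. In Mark3-KO cells Tnfrsf1a had a mean of 26.4 CPM per kb, followed by Ripk1 at 9.68, Fas at 9.15 and Tnfrsf12a at 8.92, and Tnfsf12 was lowest at 0.0378. The Tnfrsf12a mean rests on library 1, since its Mark3-KO libraries ran from 0.716 to 24.6 CPM per kb, against 3.12 to 4.23 for Tnfrsf1b. In WT cells Tnfrsf1a had 49.4 CPM per kb and Tnfrsf12a 36.0, and their ranges over libraries, 40.5 to 58.3 and 27.9 to 45.7, overlapped. Ripk1 at 7.65 and Fas at 6.90 CPM per kb followed in WT cells, then Tnfrsf1b, Traf2 and Tradd between 4.86 and 4.40, Tnfsf12 at 2.63, Tnfsfm13 at 0.525 and Tnfsf13 at 0.184. In Mark3-KO cells Tnfsfm13 at 0.495 and Tnfsf13 at 0.447 CPM per kb stood above Tnfsf12.

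Many genes followed the levels of Tnfsf12 or Tnfrsf12a over the 6 libraries, so likeness is given as a description. The 5 genes closest to Tnfsf12 by Pearson correlation of log2(CPM + 0.5) were Ankrd50, Pigq, Amotl1, Pgghg and Ubac1, with r between 0.995 and 0.996 over libraries that share depth and GC trends. Of 14072 genes with a mean of at least 1 CPM, 16.3% had r of at least 0.9. Those closest to Tnfrsf12a, a search added after its split was seen, were Slc35f6, Def8, Rcc1, Alx4 and Orai3, each with r of 0.999. Alx4, a homeobox gene of craniofacial development, had 104, 4.62 and 2.67 CPM in Mark3-KO libraries 1, 2 and 3, against 159, 143 and 116 CPM in WT libraries 1, 2 and 3. It was thus high in the same Mark3-KO library as Tnfrsf12a and low in the same others.

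The surrounding pathway was covered by 7 lists with 111 further genes, of which 98 were tested. By edgeR's adjusted p, 0 rose and 0 fell. At an unadjusted p under 0.05, 21 were higher and 33 lower, where 20.8% and 24.8% of all genes were, and DESeq2 called 15 higher and 29 lower, where it called 37.0% of all genes. Their median log2 fold change was -0.20 as counted, against 0.02 for all tested genes, and -0.0028 with the GC correction.

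Of 16 other TNF superfamily ligand genes, 8 were tested, and Tnfsf4, Cd40lg and Tnfsf14 were at 0 in all libraries. Eda, which encodes ectodysplasin, had 16.9 ± 0.833 CPM in Mark3-KO cells and 16.7 ± 1.24 CPM in WT cells, with overlapping groups. Tnf itself had 0.196 ± 0.0572 CPM in Mark3-KO cells and 0.446 ± 0.129 CPM in WT cells (SD, n = 3 each), from 9 to 31 counts per library. Tnfsf11, which encodes the osteoclast factor RANKL, had 3.33 ± 0.127 CPM in Mark3-KO cells and 2.39 ± 0.332 CPM in WT cells. Tnfsf15, at 4.63 ± 0.746 CPM in Mark3-KO cells and 3.58 ± 0.230 CPM in WT cells, and Tnfsf13b had the next smallest p of these ligands. Their log2 fold changes were 0.37 and -0.89 (edgeR adjusted p = 0.144 and 0.214), and their groups overlapped. Tnfsf13b was low, at 0.132 ± 0.0855 CPM in Mark3-KO cells and 0.250 ± 0.0819 CPM in WT cells, from 5 to 23 counts per library.

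Of the 20 tested genes among the other TNF receptors, 4 were higher and 5 lower at an unadjusted p under 0.05, where 20.8% and 24.8% of all genes were. Ltbr, the lymphotoxin receptor that also signals through NIK, had 19.4 ± 9.33 CPM in Mark3-KO cells and 66.3 ± 19.6 CPM in WT cells, a log2 fold change of -1.77 (edgeR adjusted p = 0.0506) that was -0.37 with the GC correction. Tnfrsf23, a decoy receptor of TRAIL in the mouse, had 41.9 ± 3.16 CPM in Mark3-KO cells and 29.4 ± 2.74 CPM in WT cells. Its log2 fold change of 0.51 (edgeR adjusted p = 0.0506) was 0.60 with the GC correction. Eda2r, a receptor for ectodysplasin A2, had 126 ± 22.7 CPM in Mark3-KO cells and 80.9 ± 11.7 CPM in WT cells. Its log2 fold change of 0.64 was 0.08 with the correction. Tnfrsf25, the receptor of TL1A, was low, at 0.322 ± 0.0471 CPM in Mark3-KO cells and 0.753 ± 0.196 CPM in WT cells, and its log2 fold change of -1.22 turned to 0.14 with the correction.

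The proteases that release these ligands, listed with Rhbdf1 and Rhbdf2, had the lowest list median. It was a log2 fold change of -1.05 over 8 genes, or -0.22 with the GC correction. At an unadjusted p under 0.05, 1 was higher and 5 were lower, where 20.8% and 24.8% of all genes were. Furin, which cleaves TWEAK and APRIL, had 20.2 ± 8.69 CPM in Mark3-KO cells and 86.8 ± 51.0 CPM in WT cells. On the log2 scale Furin differed by -2.11 (SE 0.51, edgeR adjusted p = 0.0506), and by -1.13 when corrected for GC. Rhbdf1, one of the inactive rhomboid genes whose products carry the TNF-releasing protease ADAM17 to the surface, had 8.57 ± 5.14 CPM in Mark3-KO cells and 40.0 ± 17.4 CPM in WT cells. For Rhbdf1 the log2 fold change was -2.22, and -1.04 with the correction. Rhbdf2 and Pcsk7 had log2 fold changes of -1.66 and -0.86, and -0.25 and -0.16 with the correction. Adam10 pointed the other way, with 309 ± 42.1 CPM in Mark3-KO cells and 216 ± 33.5 CPM in WT cells. Its log2 fold change was 0.52, and 0.06 with the correction. Adam17 itself had 0.17, and -0.12 with the correction.

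Of the 17 TRAF, IAP and ubiquitin regulators, 4 were higher and 7 lower at an unadjusted p under 0.05, with 20.8% higher and 24.8% lower over all genes. Traf4 had 7.26 ± 2.89 CPM in Mark3-KO cells and 29.8 ± 13.2 CPM in WT cells, a log2 fold change of -2.04 (edgeR adjusted p = 0.0506) that was -1.02 with the GC correction. Traf3, which holds NIK for degradation, had 32.7 ± 8.76 CPM in Mark3-KO cells and 59.3 ± 7.08 CPM in WT cells. Rnf31, the catalytic subunit of the linear ubiquitin ligase complex, had a log2 fold change of -1.13, and -0.60 with the correction. Tnip1, a partner of the NF-kB brake A20, had -1.34, and -0.04 with the correction.

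The 16 NF-kB genes included 4 higher and 9 lower at an unadjusted p under 0.05, beside 20.8% higher and 24.8% lower over all genes. Map3k14, the gene for NIK, had 6.31 ± 2.12 CPM in Mark3-KO cells and 19.9 ± 7.48 CPM in WT cells, a log2 fold change of -1.66 (edgeR adjusted p = 0.0506) that was -0.51 with the GC correction. Nfkb2, the precursor of the non-canonical subunit p52, had 18.4 ± 6.49 CPM in Mark3-KO cells and 48.2 ± 14.8 CPM in WT cells, with a log2 fold change of -1.39 that was 0.02 with the correction. Rela, the main canonical subunit, had -1.27, and 0.17 with the correction. Tab1, a partner of the kinase TAK1, had -1.64, and -0.42 with the correction.

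The 10 genes of the death-inducing complex and necroptosis had a median log2 fold change of 0.05, or 0.08 with the GC correction. Ripk3, the kinase of necroptosis, had 18.9 ± 3.38 CPM in Mark3-KO cells and 26.9 ± 3.05 CPM in WT cells, a log2 fold change of -0.50 that turned to 0.072 with the correction. Map3k5, the stress kinase ASK1, had a log2 fold change of 0.44, and 0.64 with the correction, and Faf1, a FAS-associated factor, had 0.33.

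The response genes of TNF and TWEAK had a median log2 fold change of 0.06 over 19 tested genes, or -0.08 with the GC correction, with 4 higher and 5 lower at an unadjusted p under 0.05, against 20.8% and 24.8% over all genes. Saa3, an acute-phase gene, had 1.65 ± 0.436 CPM in Mark3-KO cells and 3.86 ± 0.224 CPM in WT cells. Its log2 fold change of -1.23 (SE 0.23, edgeR adjusted p = 0.0506) was -1.16 with the correction. Ccl7, a monocyte chemokine gene, had 33.2 ± 0.828 CPM in Mark3-KO cells and 24.7 ± 1.39 CPM in WT cells, a log2 fold change of 0.43 that was 0.05 with the correction. Ptgs2, the inducible cyclooxygenase gene, had 251 ± 8.72 CPM in Mark3-KO cells and 187 ± 26.9 CPM in WT cells, a log2 fold change of 0.42 that turned to -0.084 with the correction. Tnfaip2 turned as well, with -0.60 as counted and 0.46 with the correction. Macrophages also express several of these genes, and the part of such cells, whose markers summed to 432 to 485 CPM in Mark3-KO libraries and 394 to 451 CPM in WT libraries, was not tested.

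**Figure D5:**
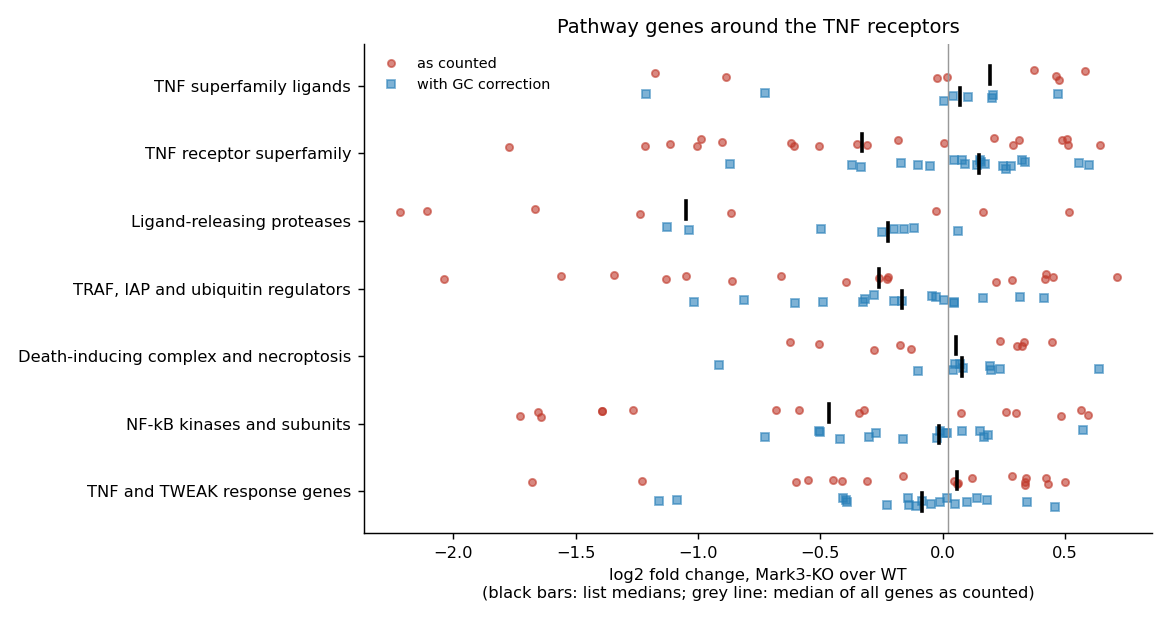
Log2 fold change of Mark3-KO over WT for the 98 tested genes of the 7 pathway lists, as counted (red circles) and with the GC correction (blue squares), with black bars for each list's median. The list of ligand-releasing proteases has the lowest median, -1.05 as counted and -0.22 after correction, and the corrected medians of all lists lie between -0.22 and 0.15.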

How the data were processed

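Per the labels' protocols, Trizol RNA went into TruSeq RNA version 2 libraries, a kit without strand marking. Whole-number counts per gene were deposited by the authors in 1 table. Upstream tools were HISAT2 2.0.5, StringTie, FastQC and DESeq2 on GRCm38, per the submitters' processing notes, with order, settings, annotation and treatment of shared reads not given in the sources used here. Of the Ensembl IDs, 51719 matched GENCODE M21, which gave symbols, positions and exonic GC content, and 193 did not. Mark3-KO was compared with WT with edgeR 4.0.16 under R 4.3.3: filterByExpr, TMM scaling, quasi-likelihood test and Benjamini-Hochberg adjustment over all tested genes, threshold 0.05. CPM were computed from the counts on TMM-scaled library sizes. Each standard error is the log2 fold change divided by the root of its F statistic. The GC correction fitted a natural spline with 6 degrees of freedom per library to log2 ratios and entered it as an offset. The fit was also run on simulated counts without a GC trend, which cannot show how it behaves under the GC differences seen here.

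The members and lists were chosen with earlier results of these data known. Named were all 10 members, Mark3, genes sharing exon bases with a member, neighbours of Tnfsf12 within 50 kb with at least 1 CPM, the 4 tested genes of each list with the smallest p (1 is not reported here), and the 5 genes most like Tnfsf12. Neighbours and likeness of Tnfrsf12a, Bend3, Vkorc1, Six2, Malat1, Alx4, Adam10 and Adam17 were added after values were seen. Alternatives were DESeq2 1.42.0 size factors and Wald test, library size alone, limma-voom 3.58.1, no filter, 1 CPM in 3 libraries, a replicate block, the GC correction, both together, an adjusted p threshold of 0.1 and each library left out. Promoters are from RefSeq, with entries for 8 of 10 members. Intervals and limits cover counting error only.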

Additional observations from a re-analysis of the deposited data

How the results depend on the processing

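Counts of calls differed widely between settings. Against 41 genes, 1 member and 0 list genes past the threshold by edgeR, library size alone gave 4510, 2 and 26. DESeq2's Wald test gave 6894, 5 and 44. limma-voom gave 27, 0 and 0, with 8672, 8 and 51 at an unadjusted p under 0.05. The filter of 1 CPM gave 5266, 4 and 38, and a threshold of 0.1 gave 8317, 6 and 54. The GC correction gave 62, 1 and 0. Leaving out 1 library at a time gave 0 to 6460 genes, 0 to 6 members and 0 to 44 list genes. The count of 0 genes came without WT library 2, where 5929 genes, 5 members and 40 list genes had an unadjusted p under 0.05. Over the same fits Tnfsf12 ran from -7.01 to -5.55 on the log2 scale, and the sum of Tnfsf12 and Tnfsfm13 from -2.34 to -1.95, with the sum's adjusted p from 0.0247 to 0.154 and its call lost in 4 of the 6 fits. Tnfsf12 did not pass under limma-voom (log2 fold change -6.58, adjusted p = 0.0553). That sum did not pass with DESeq2 size factors (-2.15), limma-voom (-2.11) or the GC correction (-0.91). Scaling by library size alone shifted the all-gene median from 0.02 to 0.13 on the log2 scale. Tnfsfm13 changed sign to 0.037 with library size alone, to 0.95 with the GC correction, to 0.072 without Mark3-KO library 2 and to 0.19 without WT library 1, and ran from -0.28 to 0.19 as each library was left out. The GC correction also turned Tnfrsf1a (0.077), Tnfrsf1b (0.25) and Tradd (0.068). The cause of these shifts was not tested. In all settings Tnfsf12 and Tnfrsf12a kept a negative log2 fold change.

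The labels do not say whether replicate numbers pair the libraries. Correlations of deviations between equal numbers were 0.33, -0.03 and 0.29 for replicates 1, 2 and 3. Unequal numbers were not compared, so these values cannot decide whether the libraries are paired. With a replicate block 8487 genes, 7 members and 56 list genes passed. With the block and the GC correction together 1692 genes, 2 members and 8 list genes passed, the sum of Tnfsf12 and Tnfsfm13 was -0.95 and did not pass, and Tnfsfm13 (0.93), Tnfrsf1a (0.079), Tnfrsf1b (0.25) and Tradd (0.081) were again above 0. Depth limits Tnfsf12, Tnfsfm13 and Tnfsf13, which had at most 286 counts in a library.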
